A study of Mus musculus with 6 samples.

Results

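The sites that estrogen receptor alpha (ERα) occupied in the wild-type mouse uterus 1 h after tamoxifen were set against those it occupied after vehicle, as mapped by chromatin immunoprecipitation and sequencing (ChIP-seq). The tamoxifen list holds 37327 peaks and the vehicle list 3712, together 41039 of the 154923 peaks in the 6 lists of the series. Peaks were sorted into classes by whether 1 bp or more of them was covered in the opposite list. The 4 classes are tamoxifen peaks without a vehicle peak (tamoxifen-only), tamoxifen peaks with one, vehicle peaks without a tamoxifen peak (vehicle-only) and vehicle peaks with one. A tamoxifen peak and the vehicle peak it overlaps are together called a shared site.

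Both groups were female C57BL/6J mice of wild-type ERα, littermates of the mutant animals, ovariectomized and 12 weeks old. The tamoxifen group received 2 mg/kg in DMSO by intraperitoneal injection and the vehicle group 50 µl of DMSO. Each group is 1 library from the pooled uteri of 6 mice. Lists of other libraries were used as further readouts at the same sites: mice with an ERα AF-2 mutation given tamoxifen, ICI (fulvestrant) or vehicle at the same doses and time, and wild-type mice given ICI, again 1 library each. The titles of all samples carry the code E1h, which no label explains. Whether it stands for the time alone or also for an estrogen given to all groups is not known, and the treatments are given here as the protocol states them.

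ERα is a nuclear receptor that, on binding a ligand, settles on DNA at estrogen response elements or by way of other DNA-bound factors, and recruits coregulators through its AF-1 and AF-2 surfaces. Ovariectomy removes the main source of estrogen. Tamoxifen is a selective estrogen receptor modulator that blocks AF-2 coactivator recruitment, and it is known for agonist activity in the rodent uterus, where it drives growth through AF-1. In many cell types ERα is known to bind mostly at enhancers away from gene starts, often several within one locus.

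With 1 library a group there is no spread between mice or libraries, and no difference was tested. The 95% intervals below are exact (Clopper-Pearson) binomial intervals for shares, or order-statistic intervals for medians. They treat peaks as independent and cover counting error only. The lists hold positions of 200 bp peaks with no height or score, and the read depth is unknown, so a site missing from a list is a site not called, not a site without receptor. In whole uterus, a site bound in fewer cells and a site bound less often in each cell cannot be told apart. Coordinates are mm9, counted from 1. Genes at the sites were not analysed here, because the annotation at hand was of another build.

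After tamoxifen, ERα was called at a large set of sites that were not called under vehicle, and most sites called under vehicle were called after tamoxifen too. Tamoxifen-only peaks numbered 34397, which is 92.2% of the tamoxifen list (91.9 to 92.4). The remaining 2930 tamoxifen peaks, 7.85% of the list, lay on a vehicle peak. From the other side, 782 vehicle peaks (21.1%, 19.8 to 22.4) were vehicle-only, and 2930, or 78.9% of the vehicle list, lay on a tamoxifen peak. These shares define the classes and are a description. Every overlap was one to one: 0 tamoxifen and 0 vehicle peaks touched more than 1 peak of the other list.

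Shared sites were nearly the same position in both libraries. The midpoints of the 2930 tamoxifen and vehicle peaks lay a median of 14 bp apart (quartiles 6 and 30 bp), and 2567 pairs (87.6%) were less than 50 bp apart. An example is the first shared site on chromosome 11, with the tamoxifen peak at 3419060 to 3419259 and the vehicle peak at 3419065 to 3419264, 5 bp apart. The match was about as close as with other libraries. Of these tamoxifen peaks, the 2381 that overlapped a wild-type ICI peak lay a median of 13 bp from it. The 2588 that overlapped a mutant tamoxifen peak, of the same ligand in the other genotype, lay a median of 9 bp from it. At the limit that separates the classes, 36 vehicle peaks had a tamoxifen midpoint from 150 to under 200 bp away and counted as shared, and 28 had one from 200 to under 250 bp away and counted as vehicle-only.

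The excess of tamoxifen over vehicle peaks was spread over all chromosomes and differed little between most of them. The tamoxifen list averaged 14.8 peaks per Mb over the 19 autosomes, and the vehicle list 1.47. Among the autosomes, tamoxifen peaks were densest on chromosome 11 (19.9 per Mb), 9 (18.2) and 19 (17.9), and sparsest on chromosome 3 (11.2). Vehicle peaks were densest on chromosome 8 (1.94 per Mb), 19 (1.92) and 9 (1.85), and sparsest on chromosome 14 (1.08). Chromosomes 9 and 19 were thus among the 3 densest in both lists. The number of tamoxifen peaks per vehicle peak ran from 8.76 on chromosome 8 (7.69 to 10.01) and on chromosome 3 (7.58 to 10.2) to 12.49 on chromosome 18 (10.2 to 15.3).

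The X chromosome was the thinnest in both lists, and least so for vehicle-only peaks. It held 711 tamoxifen and 92 vehicle peaks, 4.27 and 0.553 per Mb. Against the autosomes that is a density ratio of 0.288 for tamoxifen-listed and 0.377 for vehicle-listed peaks. It held 7.73 tamoxifen peaks per vehicle peak (6.21 to 9.71), the lowest value of the 20 chromosomes, though its interval overlaps those of most autosomes. By class, the X chromosome held 1.87% of tamoxifen-only peaks (1.73 to 2.02), 3.20% of vehicle-only peaks (2.08 to 4.68) and 2.29% of vehicle peaks at shared sites (1.78 to 2.90). The interval for vehicle-only peaks lies just above that for tamoxifen-only peaks and overlaps that for shared sites.

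**Figure D1:**
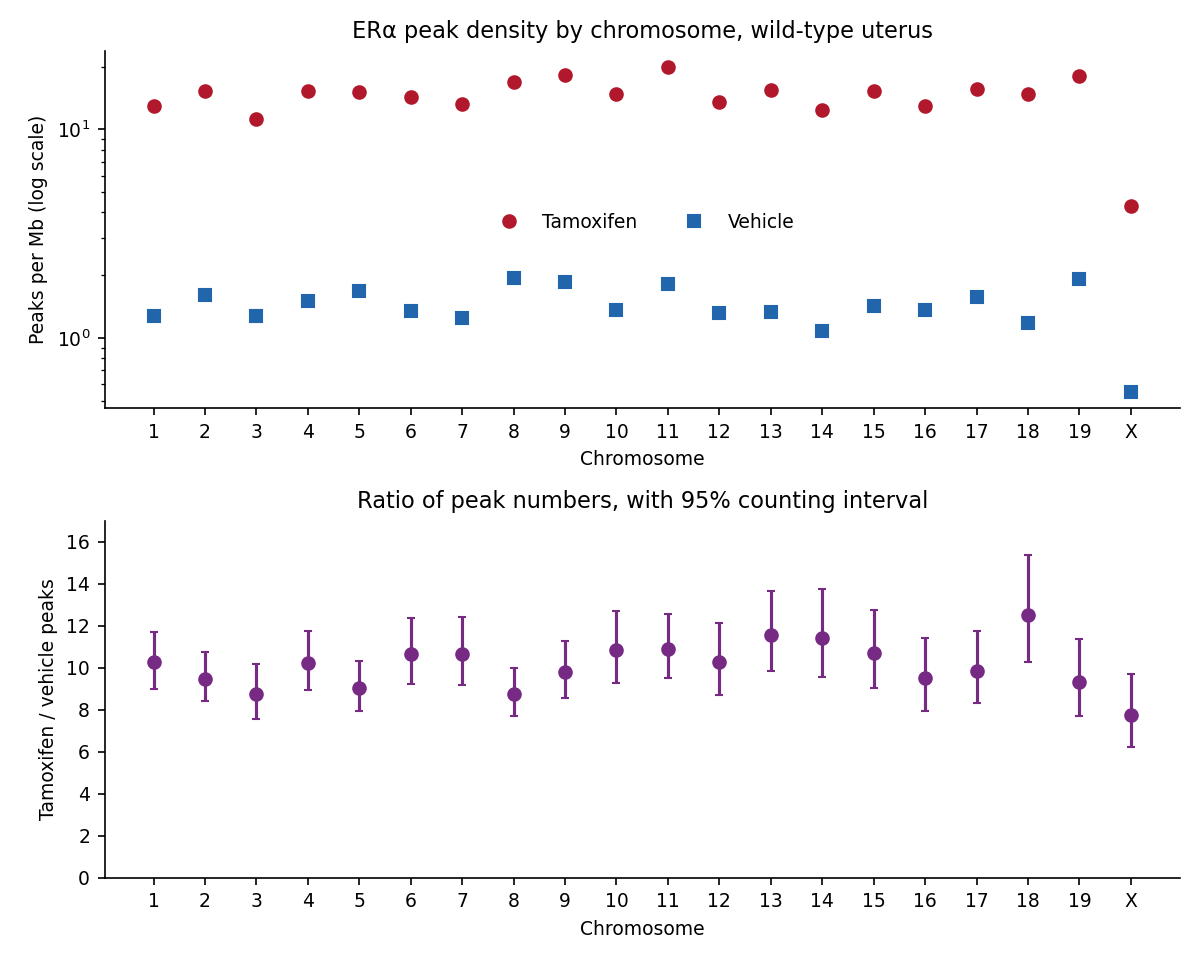
Peaks per Mb on each chromosome (log scale) for tamoxifen (circles) and vehicle (squares), and below it the ratio of tamoxifen to vehicle peak numbers with 95% counting intervals. The ratio lies between 7.73 on the X chromosome and 12.49 on chromosome 18, and both lists are thinnest on the X chromosome.

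Within chromosomes, both lists leaned to the end away from the first base. When each chromosome was cut into 5 equal parts, the first held 13.7% of tamoxifen and 15.1% of vehicle peaks, and the last 27.0% of tamoxifen and 25.6% of vehicle peaks. Mouse chromosomes are numbered from the centromere, beside which each assembly starts with unsequenced bases, and their part in this difference was not tested. The classes kept close to this: vehicle-only peaks had 16.1% in the first part and 26.6% in the last.

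The tamoxifen list left 276 stretches of 1 Mb or more empty, 20.7% of the span, and the vehicle list 698, or 62.8%. A vehicle peak at a shared site cannot lie in a tamoxifen-empty stretch, and of the 782 vehicle-only peaks 18 (2.302%, 1.37 to 3.61) lay in one of this size. The longest such stretch, on chromosome X at 23270263 to 33429426, was empty in all 6 lists. The longest vehicle-empty stretch, on chromosome 1 at 99666806 to 118167319 (18.5 Mb), held 47 tamoxifen peaks and 3 mutant vehicle peaks. Chromosome 1 as a whole had 13.0 tamoxifen peaks per Mb. The 5 longest vehicle-empty stretches held between 7 tamoxifen peaks, on chromosome 15 at 13146788 to 24899251 (11.8 Mb), and those 47. Each was thinner in tamoxifen peaks than its chromosome as a whole, which for chromosome 15 had 15.2 per Mb.

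Tamoxifen peaks lay close together and vehicle peaks far apart, a contrast that follows in part from the number of peaks. The median distance from one peak to the next was 21259 bp in the tamoxifen list (20855 to 21693) and 304478 bp in the vehicle list (286097 to 321046). The mean was 68909 bp for tamoxifen and 683432 bp for vehicle. The median was thus 0.309 of the mean for tamoxifen and 0.446 for vehicle. A smaller ratio means that more peaks sit in tight groups with wide gaps between the groups. How far the ratio depends on the length of a list was not tested. Neighbours under 1 kb apart made up 6.74% of tamoxifen distances and 0.731% of vehicle distances.

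Tamoxifen-only peaks lay about as near to vehicle peaks as shared sites lay to their neighbours in the vehicle list. Their median distance to the nearest vehicle peak was 132873 bp (130658 to 135247), close to the 141693 bp (133304 to 149740) from a tamoxifen peak at a shared site to the nearest vehicle peak other than its own. Within 10 kb of such a vehicle peak lay 7.51% of tamoxifen-only peaks (7.23 to 7.79) and 7.13% of tamoxifen peaks at shared sites (6.23 to 8.13). A further 4.29% of tamoxifen-only peaks, 1475 in number, were 1 Mb or more from any vehicle peak.

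Nor did the shared sites sit in denser tamoxifen neighbourhoods. Tamoxifen-only peaks had a mean of 3.67 other tamoxifen peaks within 50 kb, and tamoxifen peaks at shared sites 3.49, with a median of 3 and quartiles of 1 and 5 in both classes. The median distance to the nearest other tamoxifen peak was 9058 bp for tamoxifen-only peaks (8883 to 9229) and 9895 bp at shared sites (9284 to 10542). The distance at shared sites was slightly longer, by intervals that do not overlap. Within 500 bp, 3.84% of tamoxifen-only peaks and 3.79% of tamoxifen peaks at shared sites had another tamoxifen peak.

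**Figure D2:**
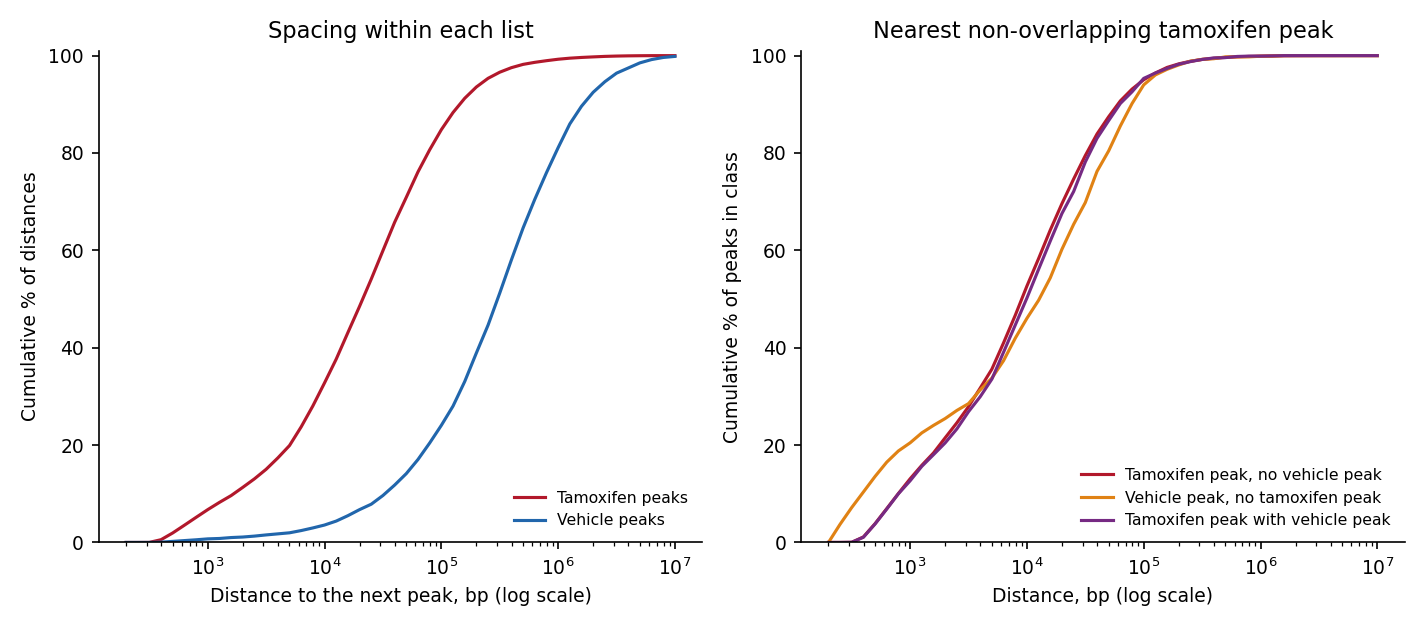
Left, cumulative share of distances from one peak to the next within the tamoxifen and vehicle lists; right, cumulative share of peaks by distance to the nearest tamoxifen peak that does not overlap them, for 3 classes (log axes). Tamoxifen-only peaks and tamoxifen peaks at shared sites follow nearly the same curve, with medians of 9058 and 9895 bp, whereas vehicle-only peaks start higher, with 13.6% under 500 bp, and then lag, with a median of 12716 bp. The higher start is in part built in, since the curves of both tamoxifen classes cannot rise below 266 bp, the smallest distance between tamoxifen neighbours.

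Tamoxifen peaks were also grouped into clusters. A cluster is a run of peaks with neighbouring midpoints at most 0.0125 Mb apart, a distance commonly used to join clustered enhancers. The 37327 tamoxifen peaks fell into 23333 units, of which 15684 were single peaks, 3101 clusters had 3 or more peaks, 753 had 5 or more and 61 had 10 or more. Clustered alone, 91.6% of vehicle peaks were single, and 9 vehicle clusters had 3 peaks, holding 27 peaks. The median tamoxifen cluster of 3 or more spanned 13.6 kb.

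Of tamoxifen-only peaks, 33.8% lay in clusters of 3 or more (33.3 to 34.3), against 31.8% of tamoxifen peaks at shared sites (30.1 to 33.5). These intervals overlap, but those at a joining distance of 5 kb (11.1%, 10.8 to 11.4, against 9.32%, 8.29 to 10.4) and of 25 kb (55.7%, 55.2 to 56.2, against 52.6%, 50.7 to 54.4) do not, with shared sites the less clustered. Single peaks were 41.9% of tamoxifen-only peaks (41.3 to 42.4) and 44.0% of those at shared sites (42.2 to 45.8). The share of tamoxifen peaks with a vehicle peak was 8.21% for single peaks (7.79 to 8.65), 7.82% in pairs, 7.33% in clusters of 3 to 4 (6.76 to 7.93), 7.41% in clusters of 5 to 9 and 8.46% in clusters of 10 or more (6.53 to 10.7). These stay near the 7.85% of the whole list and show no steady course with cluster size.

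Since a large cluster has more peaks, it more often held at least 1 shared site, by construction. Of the 3101 clusters with 3 or more tamoxifen peaks, 815 (26.3%, 24.7 to 27.9) held a shared site, and 100 held more than 1. Of the 61 clusters with 10 or more tamoxifen peaks, 22 held 0 shared sites. In these 61 clusters together, 8.46% of the 721 tamoxifen peaks were at shared sites (6.53 to 10.7), near the 7.85% of the whole list. How many such clusters would hold 0 at that share was not tested. In the 715 clusters with exactly 1 shared site, that site was the first or last peak of the cluster in 379 (53.0%, 49.3 to 56.7). If every position in a cluster had been equally frequent, the share would be 51.2%, so that shared sites were placed neither towards the middle nor towards the edge beyond counting error.

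The largest clusters serve as examples. In clusters of 10 or more, 8.46% of tamoxifen peaks lay on a vehicle peak (6.53 to 10.7), against 7.85% of the whole list. A small number of vehicle peaks thus does not set a large cluster apart. The largest by number lay on chromosome 11 at 50430697 to 50557166 and held 20 tamoxifen peaks and 1 vehicle peak. That vehicle peak, at 50486315 to 50486514, lay 4 bp from the tamoxifen peak at 50486319 to 50486518. Around it, 19 tamoxifen-only peaks were spread over 126 kb with a median gap of 5488 bp, and 16 of the 20 tamoxifen peaks were also mutant tamoxifen peaks. Over all clusters of 10 or more, 76.1% of tamoxifen peaks were (72.9 to 79.2), against 64.1% of the whole list, and single clusters are too small to set apart from that. The second, on chromosome 14 at 26271576 to 26352887, held 19 tamoxifen peaks and 1 vehicle peak, which lay at 26329011 to 26329210, and 17 of the 19 were mutant tamoxifen peaks.

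Of 3 clusters tied at 17 tamoxifen peaks, the one on chromosome 5 at 125590302 to 125661249 had 0 wild-type vehicle peaks. Of its 17 tamoxifen peaks, 14 were mutant tamoxifen, 15 mutant ICI and 10 wild-type ICI calls. Over all clusters of 10 or more the shares were 83.4% for mutant ICI and 55.9% for wild-type ICI, and over the whole list 74.6% and 51.2%. It extends from one into the other of a pair of adjoining 100 kb windows, at 125500001 to 125600000 with 18 tamoxifen peaks and 0 vehicle peaks, and at 125600001 to 125700000 with 16 tamoxifen peaks and 1 vehicle peak that was vehicle-only. Another cluster of this size, at 35100122 to 35171165 on chromosome 9, held 2 vehicle peaks, both at shared sites. The last, which spanned 84261828 to 84350365 of chromosome 17, held 1, also at a shared site.

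The clusters richest in vehicle peaks were small. Of the 27 vehicle peaks in clusters of 3, 24 overlapped a tamoxifen peak (88.9%, 70.8 to 97.6), an interval that holds the 78.9% of all vehicle peaks. On chromosome 2 at 27032280 to 27045746, the 3 vehicle peaks all overlapped tamoxifen peaks, and the tamoxifen list had 2 more between them, at 27037569 to 27037768 and at 27044106 to 27044305. On chromosome 3 at 131158294 to 131171261, the 3 tamoxifen and 3 vehicle peaks matched one to one. On chromosome 5 at 120047140 to 120048533, 2 tamoxifen peaks flanked a vehicle-only peak at 120047877 to 120048076, which the mutant ICI list also held.

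**Figure D3:**
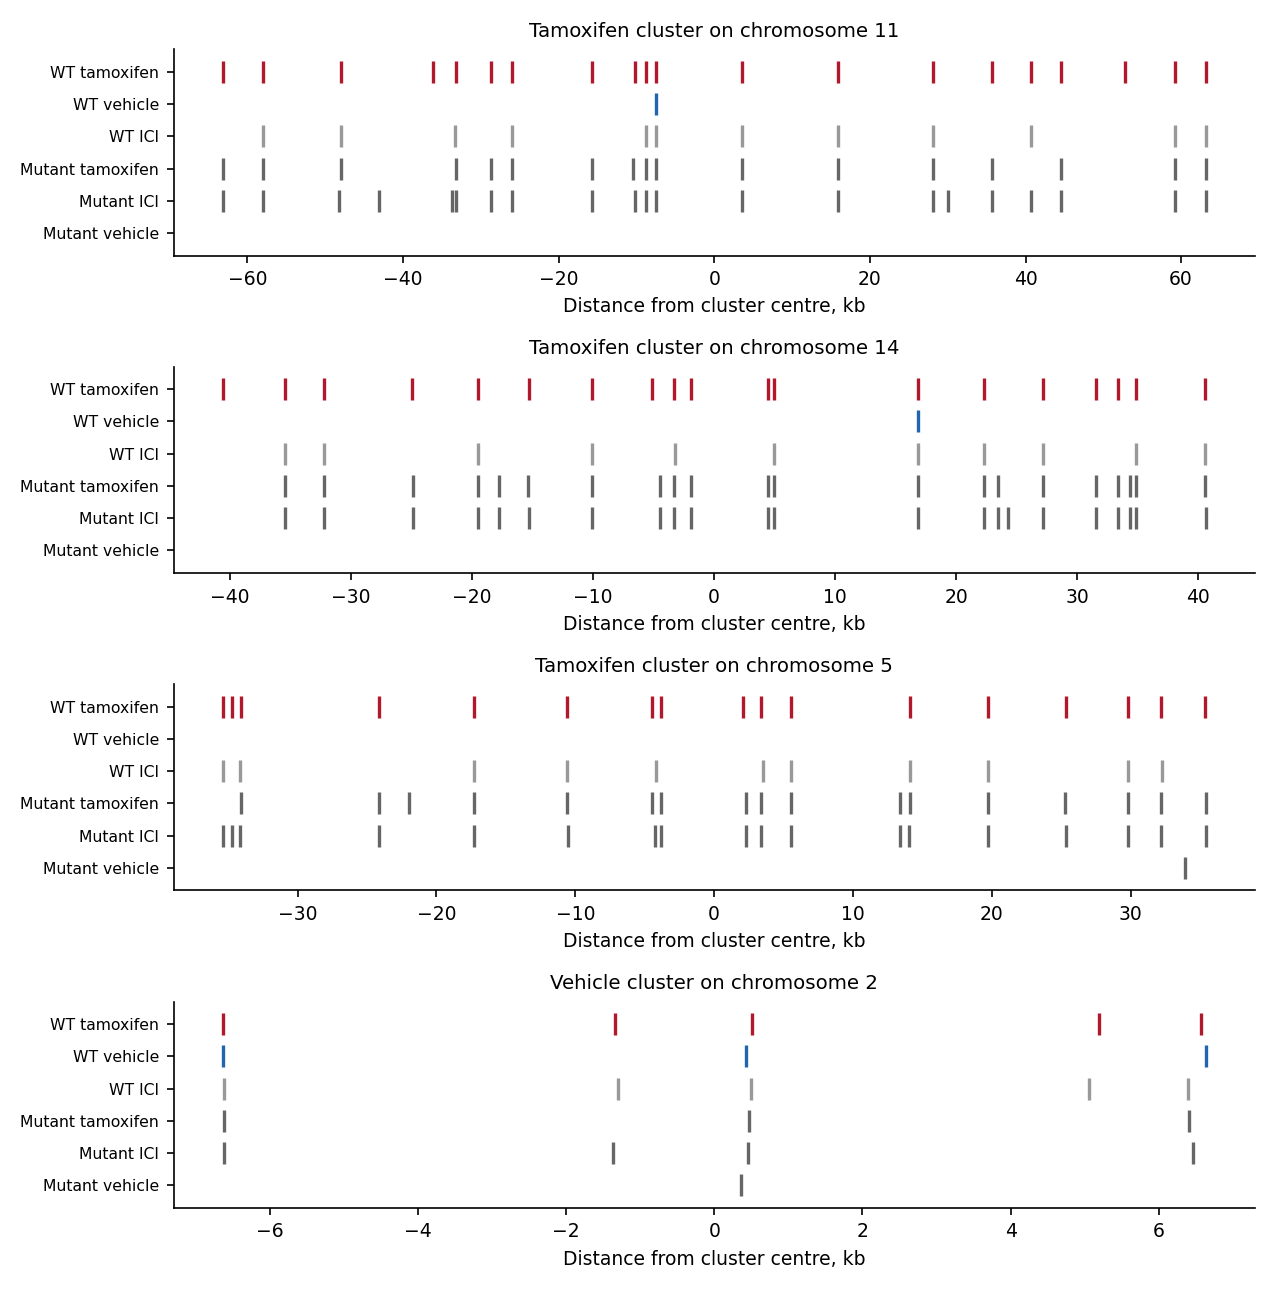
Peak midpoints in the 6 lists (WT, wild type; Mutant, AF-2 mutant) across the 3 tamoxifen clusters shown first by size and the first vehicle cluster of 3, as distance from the cluster centre in kb. The 20, 19 and 17 tamoxifen peaks of the upper maps stand over 1, 1 and 0 wild-type vehicle peaks, and the vehicle cluster holds 5 tamoxifen and 3 vehicle peaks.

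In fixed windows of 100 kb, 13466 windows held a tamoxifen peak and 3215 a vehicle peak, and 3051 held both. Windows with a vehicle peak but 0 tamoxifen peaks numbered 164, so that 94.9% of vehicle windows (94.1 to 95.6) also had a tamoxifen peak, whether or not it overlapped. The share of windows with a vehicle peak was 1.27% where tamoxifen had 0 peaks, 11.4% where it had 1, 27.9% where it had 3 to 4, 41.4% where it had 5 to 9 and 58.4% where it had 10 or more (51.7 to 64.9). Part of this is built in, since every shared site counts in both lists. Vehicle-only peaks, which are free of it, were found in 1.26% of windows with 0 tamoxifen peaks (1.08 to 1.47), 3.29% with 1, 5.13% with 3 to 4, 5.84% with 5 to 9 and 7.96% with 10 or more (4.79 to 12.3). Counted per tamoxifen peak, the share on a vehicle peak was 8.47% in windows with 1 tamoxifen peak (7.71 to 9.28), 7.504% in windows with 5 to 9 (7.06 to 7.97) and 7.15% in windows with 10 or more (6.20 to 8.20).

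The windows with the most tamoxifen-only peaks include those on chromosome 5 described above and further ones on chromosomes 5, 8 and 14. At 114000001 to 114100000 on chromosome 5 there were 19 tamoxifen peaks and 1 vehicle peak. At 122800001 to 122900000 on chromosome 8 there were 20 tamoxifen and 2 vehicle peaks, and the vehicle peaks stood 75621 bp apart, both at shared sites. At 26300001 to 26400000 on chromosome 14 there were 18 tamoxifen and 2 vehicle peaks, with the vehicle peaks 39192 bp apart and both shared. Among windows with at least 1 vehicle peak, that on chromosome 8 at 124600001 to 124700000 was the fifth by tamoxifen minus vehicle peaks, with 17 tamoxifen peaks and 2 vehicle peaks, both shared and 5644 bp apart. At most 2 vehicle-only peaks fell into any window, and 27 windows reached that number. The first of these, on chromosome 1 at 63100001 to 63200000, had 0 tamoxifen peaks and 2 vehicle peaks 564 bp apart, of which 1 was also a mutant vehicle call, 1 a mutant tamoxifen call and 1 a wild-type ICI call.

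Vehicle-only peaks held both near neighbours of tamoxifen peaks and sites far from them. Their median distance to the nearest tamoxifen peak was 12716 bp (10391 to 15353). For vehicle peaks at shared sites, the nearest tamoxifen peak apart from their own was at a median of 9923 bp (9231 to 10542), and the intervals overlap. The direction of the difference rests on the overlap rule. Where at least 100 bp of overlap was asked for, the vehicle-only class gained peaks that partly cover a tamoxifen peak. Its median was then 8842 bp (7219 to 10955), against 9982 bp at shared sites (9297 to 10578), again with overlapping intervals. Yet 106 vehicle-only peaks (13.6%, 11.2 to 16.2) had a tamoxifen peak under 500 bp away, against 109 vehicle peaks at shared sites (3.72%, 3.06 to 4.47) that had a second one so near. Between 200 and 250 bp there were 28 vehicle-only peaks, between 250 and 300 bp 19, between 300 and 400 bp 34 and between 400 and 500 bp 25. A part of the class thus lay beside, not on, a tamoxifen peak. The smallest distance between neighbours within a list was 266 bp for tamoxifen and 342 bp for vehicle, so a list does not hold calls closer than this. A second tamoxifen peak near a shared site is thus hardly possible below that distance, whereas vehicle-only peaks count from 200 bp on. The contrast under 500 bp is therefore in part built in, and how large that part is was not tested.

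Over the wider surroundings, vehicle-only peaks, near neighbours included, had fewer tamoxifen peaks around them. They had a mean of 2.64 tamoxifen peaks within 50 kb, against 3.49 other tamoxifen peaks around vehicle peaks at shared sites, and 19.8% of them (17.1 to 22.8) had 0, against 13.4% of vehicle peaks at shared sites (12.2 to 14.7).

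The other libraries, which the classes did not use, called the shared sites far more often than the tamoxifen-only sites. Of all tamoxifen peaks, 64.1% overlapped a mutant tamoxifen peak, 74.6% a mutant ICI peak, 51.2% a wild-type ICI peak and 5.92% a mutant vehicle peak. Tamoxifen-only peaks did so at 62.0% for mutant tamoxifen (61.5 to 62.5), 73.2% for mutant ICI (72.7 to 73.7), 48.6% for wild-type ICI (48.1 to 49.2) and 4.17% for mutant vehicle (3.96 to 4.39). Tamoxifen peaks at shared sites did so at 88.3% for mutant tamoxifen (87.1 to 89.5), 90.7% for mutant ICI (89.6 to 91.7), 81.3% for wild-type ICI (79.8 to 82.7) and 26.4% for mutant vehicle (24.8 to 28.1). In none of the 4 lists do the intervals of these classes overlap. In all 3 other ligand lists at once were 37.6% of tamoxifen-only peaks and 72.4% of tamoxifen peaks at shared sites. In none of the 4 other lists were 6153 tamoxifen-only peaks (17.9%, 17.5 to 18.3) and 68 tamoxifen peaks at shared sites (2.32%, 1.81 to 2.93).

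Vehicle-only peaks showed the reverse order between ligand and vehicle lists. Of all vehicle peaks, 76.2% overlapped a mutant tamoxifen peak, 77.4% a mutant ICI peak, 67.4% a wild-type ICI peak and 29.4% a mutant vehicle peak. Vehicle-only peaks overlapped mutant tamoxifen peaks at 30.8% (27.6 to 34.2), against 88.3% of vehicle peaks at shared sites. They overlapped wild-type ICI peaks at 15.7% (13.2 to 18.5), against 81.2% of vehicle peaks at shared sites (79.7 to 82.6). In the mutant vehicle list, however, vehicle-only peaks recurred at 39.6% (36.2 to 43.2) and vehicle peaks at shared sites at 26.7% (25.1 to 28.4). The mutant vehicle library comes from other mice. Among wild-type vehicle peaks, the share also called under vehicle in the mutant was thus higher for those absent from the wild-type tamoxifen list. By number, 310 vehicle-only peaks and 783 vehicle peaks at shared sites were called there.

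**Figure D4:**
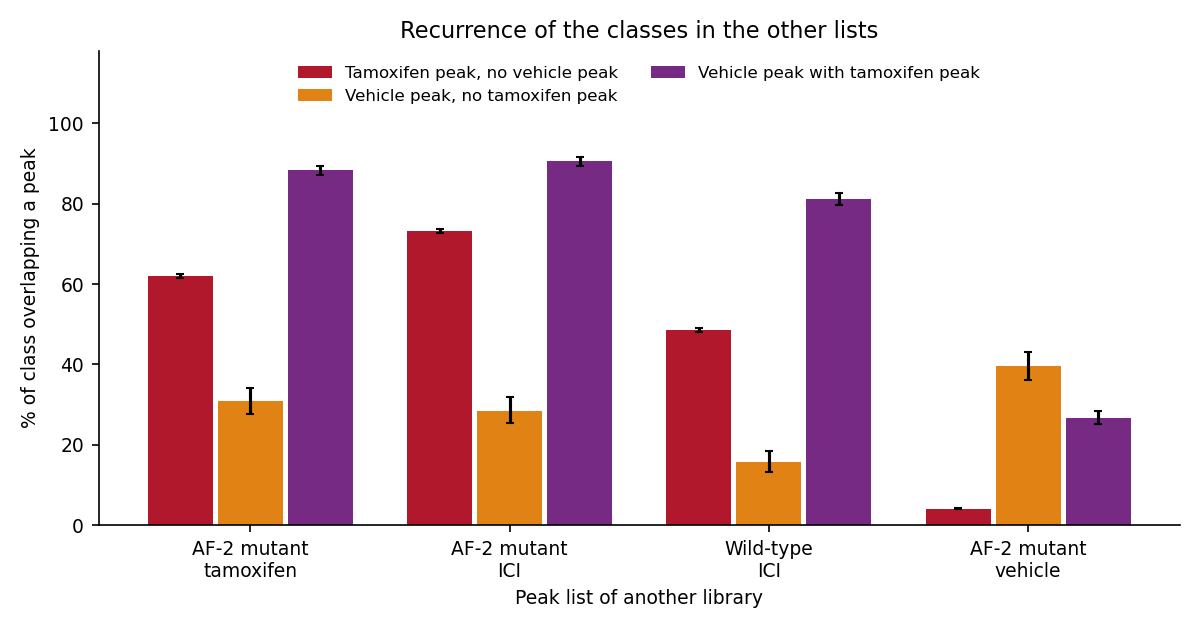
Share of each class that overlaps a peak of 4 lists from other libraries, with 95% exact intervals. Vehicle peaks at shared sites are highest in the 3 ligand lists (81.2% to 90.5%), whereas vehicle-only peaks are highest in the mutant vehicle list (39.6%).

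The vehicle-only class was itself mixed. The 310 vehicle-only peaks that the mutant vehicle list also held overlapped mutant tamoxifen peaks at 51.3% (45.6 to 57.0), mutant ICI peaks at 53.2% (47.5 to 58.9) and wild-type ICI peaks at 11.6% (8.27 to 15.7). The other 472 overlapped mutant tamoxifen peaks at 17.4% (14.1 to 21.1), mutant ICI peaks at 12.3% (9.46 to 15.6) and wild-type ICI peaks at 18.4% (15.0 to 22.2). Recurrence in one mutant list thus went with recurrence in the others, and not with recurrence in the wild-type ICI list. Lists of a genotype share their mice's genotype, and any batch they may share is not given. In none of the 4 other lists were 304 vehicle-only peaks (38.9%, 35.4 to 42.4), against 66 vehicle peaks at shared sites (2.25%, 1.75 to 2.86). Of the 4, the mutant vehicle list alone held 100 vehicle-only peaks (12.8%, 10.5 to 15.3) and 19 vehicle peaks at shared sites (0.648%, 0.391 to 1.01).

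Among tamoxifen-only peaks, recurrence in the ligand lists went with clustering. Single tamoxifen-only peaks overlapped a mutant tamoxifen peak at 57.2% (56.4 to 58.0), those in pairs at 63.1% (62.1 to 64.2), those in clusters of 3 to 4 at 66.0% (64.9 to 67.1), of 5 to 9 at 67.9% (66.3 to 69.3) and of 10 or more at 74.4% (70.9 to 77.7). For mutant ICI the share was 69.2% for single peaks and 82.3% in clusters of 10 or more. For wild-type ICI it was 45.3% for single peaks and 52.9% in clusters of 10 or more, with little difference among clusters of 3 or more. For mutant vehicle it was 4.39% for single peaks (4.06 to 4.74) and 3.64% in clusters of 10 or more (2.34 to 5.36), with overlapping intervals. In clusters of 5 to 9 it was lower, at 3.22% (2.68 to 3.83), and that interval does not overlap that for single peaks. In none of the 4 other lists were 20.9% of single tamoxifen-only peaks and 12.0% of those in clusters of 10 or more.

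Among tamoxifen peaks at shared sites, recurrence in the ligand lists also went with clustering, from a higher level. Single ones overlapped a mutant tamoxifen peak at 85.2% (83.1 to 87.1), and those in clusters of 3 to 4 at 92.7% (90.3 to 94.7). For wild-type ICI the share was 76.9% for single peaks (74.5 to 79.2) and 89.5% in clusters of 5 to 9 (85.6 to 92.7). For mutant vehicle it fell from 29.4% for single peaks (26.9 to 32.0) to 18.3% in clusters of 5 to 9 (14.1 to 23.1). These intervals do not overlap, and in between it was 26.3% in pairs and 23.8% in clusters of 3 to 4. For the 61 peaks in clusters of 10 or more it was 29.5% (18.5 to 42.6). In the mutant tamoxifen list, a single tamoxifen peak at a shared site was called again more often than a tamoxifen-only peak in the largest clusters.

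**Figure D5:**
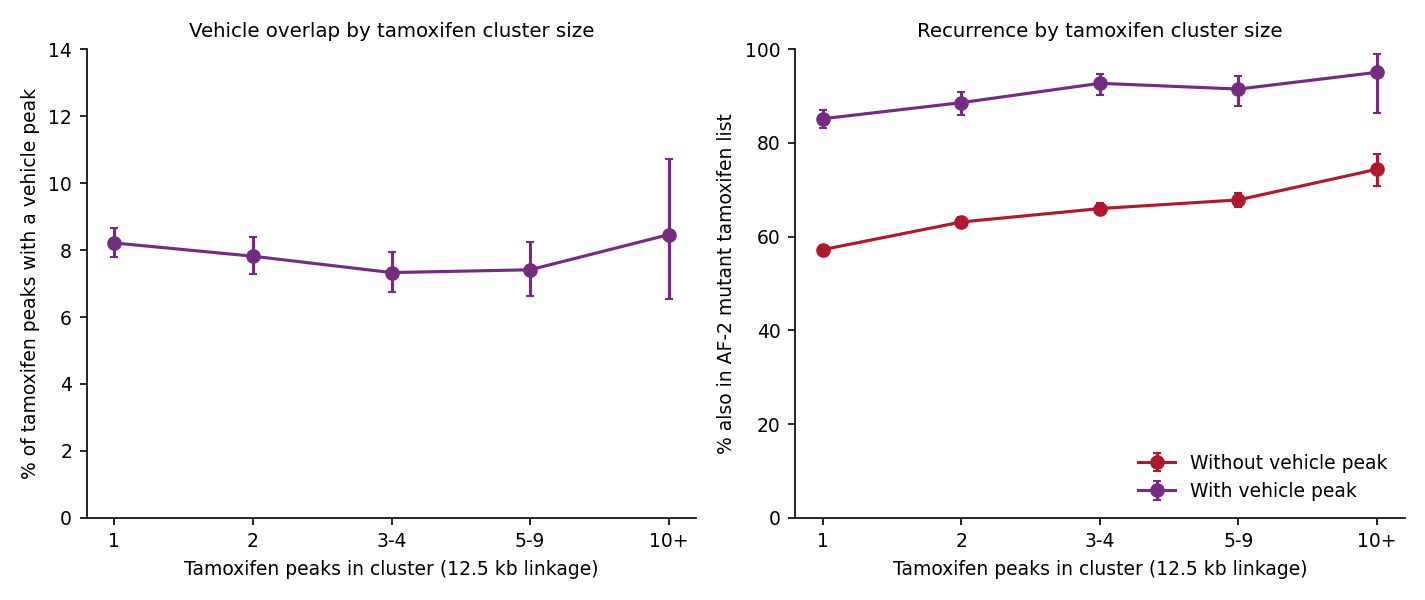
By number of tamoxifen peaks in a cluster: left, the share of tamoxifen peaks that lie on a vehicle peak; right, the share of tamoxifen-only peaks and of tamoxifen peaks at shared sites that recur in the AF-2 mutant tamoxifen list, with 95% exact intervals. Vehicle overlap stays between 7.33% and 8.46%, while recurrence of tamoxifen-only peaks runs from 57.2% to 74.4%.

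In the pairs of lists most like this one, shared sites were likewise no more clustered than the rest of the ligand list, and differences between the pairs were not tested. In the AF-2 mutant, 37.5% of tamoxifen-only peaks (36.9 to 38.0) and 34.9% of tamoxifen peaks on a vehicle peak (33.2 to 36.6) lay in clusters of 3 or more, by intervals that do not overlap, and 14.4% of vehicle-only peaks (12.8 to 16.0) had a tamoxifen peak under 500 bp away. For wild-type ICI, which shares the vehicle library with the tamoxifen comparison, the shares in clusters were 22.3% without and 21.0% with a vehicle peak, and 15.8% of the vehicle peaks without an ICI peak had one under 500 bp away. Of the vehicle peaks, 78.9% lay on one of the 37327 wild-type tamoxifen peaks and 67.4% on one of the 26482 wild-type ICI peaks. In the AF-2 mutant, 62.0% lay on one of the 36538 tamoxifen peaks.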

How the data were processed

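ERα ChIP-seq was carried out on sonicated, formaldehyde-fixed uterus, per the labels' protocols. The authors deposited 1 peak list per library, whose values are positions (chromosome, start and end). Each peak is 200 bp wide, and there is no score, height or p-value. The build is mm9, and the tools named are HOMER 4.10.3, bedtools 2.24.0, Bowtie2 2.1.0, Picard and SAMtools, without roles, per the submitters' processing notes. The sources used here do not give the peak threshold or the use of input in calling. These and the unknown read depth can change how many peaks a list holds.

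Overlaps, distances, clusters and windows were computed with Python 3.11.15, numpy 2.4.6 and scipy 1.17.1. All 30 overlap counts between lists were checked against bedtools 2.31.1 and 0 differed, and the counting was tested on simulated lists. Chromosome length is the last peak end in any list. Density and windows by tamoxifen count use chromosomes 1 to 19 and X, which leaves out 18 tamoxifen peaks and 0 vehicle peaks.

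The classes and measures were chosen with earlier results of these data known. Named regions follow a rule: the top 5 windows or clusters by tamoxifen-only peaks, by tamoxifen minus vehicle peaks (where at least 1 vehicle peak is present), by vehicle-only peaks and by cluster size in either list, ties in genome order, and the first member of each class on chromosomes 1, 5, 11 and X. The planned comparisons by gene position, gene list and motif needed an mm9 annotation or genome and were not made. The available gene table, GRCm38, was not used. The alternatives tried concerned overlap, merging, chromosomes, linkage and windows.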

Additional observations from a re-analysis of the deposited data

How the results depend on the processing

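Of 44 values from 11 alternative settings of 18 results, 21 stayed within the counting interval of the reported value (for counts, within 1.5 times), and 23 moved beyond it. 1 comparison turned: the distance to a tamoxifen peak, longer for vehicle-only peaks than at shared sites as reported, was shorter with an overlap of at least 100 bp. The intervals overlap in both settings, so neither direction is set apart from counting error. With an overlap of at least 100 bp, 76.3% of vehicle peaks had a tamoxifen peak, the median distance of vehicle-only peaks to a tamoxifen peak was 8842 bp, 61.3% of tamoxifen-only peaks recurred in the mutant tamoxifen list, and 24.6% of vehicle peaks at shared sites in the mutant vehicle list. With midpoints within 1 kb, 9.27% of tamoxifen and 83.2% of vehicle peaks were shared. Recurrence was then 64.9% for tamoxifen-only peaks and 89.7% for tamoxifen peaks at shared sites in the mutant tamoxifen list, and 44.1% for vehicle-only and 28.8% for shared vehicle peaks in the mutant vehicle list. With peaks up to 500 bp apart merged, 8.19% of tamoxifen regions had a vehicle region, and 30.2% of tamoxifen-only and 28.5% of shared tamoxifen regions lay in clusters of 3 or more. Those cluster shares were 11.1% and 9.32% with a linkage of 5 kb, and 55.7% and 52.6% with 25 kb, and at both distances the intervals separate, which they do not as reported. In windows of 50 kb, 16.5% of tamoxifen windows had a vehicle peak and 92.0% of vehicle windows a tamoxifen peak, and in windows of 1 Mb 68.7% and 99.7%, which follows from the window size. Without chromosome length, the X chromosome held 0.369 of a mean autosome's peaks for tamoxifen and 0.483 for vehicle.

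No paired analysis was possible because each group is 1 library. For the same reason no replicate was left out. The alternatives by gene position and motif were not run. The depth and threshold of each library are unknown, and the lists hold no heights, so no stricter peak set was tried.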

Other observations

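Recurrence of tamoxifen-only peaks changed little with their distance from the vehicle list, except at the ends, and not at both ends in each list. Those under 1 kb from a vehicle peak, 532 in number, overlapped a mutant tamoxifen peak at 66.9% (62.7 to 70.9) and a mutant vehicle peak at 8.46% (6.24 to 11.2). For those 10 to 100 kb away, the shares were 62.8% in the mutant tamoxifen list (62.0 to 63.7) and 4.196% in the mutant vehicle list (3.84 to 4.57). For the 1475 that were 1 Mb or more away, they were 56.0% in the mutant tamoxifen list (53.4 to 58.6) and 3.39% in the mutant vehicle list (2.53 to 4.44). By intervals against 10 to 100 kb, mutant tamoxifen stood apart only at the far end and mutant vehicle only at the near end. For vehicle-only peaks the mutant tamoxifen list ran the other way with distance from a tamoxifen peak: 16.98% (10.4 to 25.5) of the 106 under 500 bp, 34.4% (29.6 to 39.4) of the 375 at 10 to 100 kb, and 40.4% (26.4 to 55.7) of the 47 at 100 kb or more recurred there. At these distances the mutant ICI shares also rose (11.3%, 32.8% and 42.6%). Mutant vehicle shares were 35.8%, 44.5% and 51.1%, with overlapping intervals. They did not rise steadily, with 22.2% at 500 to 1000 bp and 34.5% at 1000 to 10000 bp. Wild-type ICI shares did not rise (18.9%, 15.5% and 8.51%, with overlapping intervals). Neighbours in the mutant tamoxifen list were at least 289 bp apart, which limits its calls beside an occupied tamoxifen site.

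The first members of the classes along the chromosomes give single sites. On chromosome X, the tamoxifen-only peak at 6683427 to 6683626 was in no other list, the vehicle-only peak at 7709811 to 7710010 was in no other list, and the shared site with the tamoxifen peak at 9368625 to 9368824 was also in the 3 other ligand lists. On chromosome 11, the tamoxifen-only peak at 3189686 to 3189885 was called in all 4 lists of the other libraries, including mutant vehicle. The vehicle-only peak at 3352329 to 3352528 was called in all 3 mutant lists and in no wild-type ligand list.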
